A study of Caenorhabditis elegans with 6 samples.

Results

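The lysozyme genes of the nematode Caenorhabditis elegans that carry the name lys were followed in whole worms, 3 libraries from worms exposed to terahertz (THz) radiation and 3 from control worms. The members were the rows of the deposited table named lys-1 to lys-10, and all 10 were found among 46950 rows, 20845 of which had a value above 0. All 10 identifiers carried the same symbol in the reference gene names, and all 10 were protein-coding in the Ensembl annotation of the same build, WBcel235. The exposed group is labelled THz, and by the series title the radiation was of high power at 0.26 THz. The control group is labelled Control and differs from it in no other label. Neither the labels nor the title give the strain, stage, age, food, exposure time or temperature. They also leave unsaid whether the 3 libraries of a group are separate cultures, so a p-value here reflects the spread among libraries that may be technical repeats.

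Lysozymes cut the peptidoglycan of bacterial cell walls. The lys genes of C. elegans encode enzymes that resemble lysozymes of amoebae, and a separate family, the ilys genes, encodes invertebrate-type lysozymes. The worm feeds on bacteria, and lysozymes made in its intestine are known both as digestive enzymes and as effectors of innate immunity. Expression of several lys genes responds to pathogens and depends on the p38 kinase PMK-1, the TGF-beta-like ligand DBL-1 and the insulin-regulated transcription factor DAF-16.

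Levels are given as FPKM, the deposited unit, in which reads are scaled to gene length and to library size, so that levels of different genes can be compared. Counted reads were recovered from FPKM and gene length, and the libraries held 19079440 to 21977418 of them. Intervals given with read counts are exact 95% Poisson intervals, and since the reads carry no molecular identifiers, they cover counting error only. The 3 control libraries differed from each other more than the 3 THz libraries did over all genes. On log2(FPKM + 1), Pearson's r between control libraries was 0.956 to 0.987 and that between THz libraries 0.991 to 0.994, across genes, which are not independent replicates. In whole worms, fewer cells of a type and less RNA per cell cannot be told apart.

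The lys family fell into abundant and scarce members. By mean over the 6 libraries, lys-7 came first at 347 FPKM, followed by lys-1 at 285 FPKM, lys-4 at 230 FPKM and lys-8 at 212 FPKM. These 4 genes lay above at least 97.6% of all genes with a value, and together they made up 93.2% to 96.1% of the summed lys FPKM of each library. Next was lys-2 at 45.0 FPKM. The scarce members were lys-6 at 3.55 FPKM, lys-5 at 3.33 FPKM, lys-10 at 2.53 FPKM, lys-3 at 0.656 FPKM and lys-9 at 0.0973 FPKM. In the THz libraries lys-7 (290 ± 4.14 FPKM), lys-1 (271 ± 7.40 FPKM) and lys-8 (201 ± 5.48 FPKM; SD, n = 3 each) were separated by more than their spread, while lys-4 (236 ± 52.2 FPKM) overlapped with all of them. Among control libraries the order differed from library to library, since some members varied several-fold and others hardly varied.

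**Figure D1:**
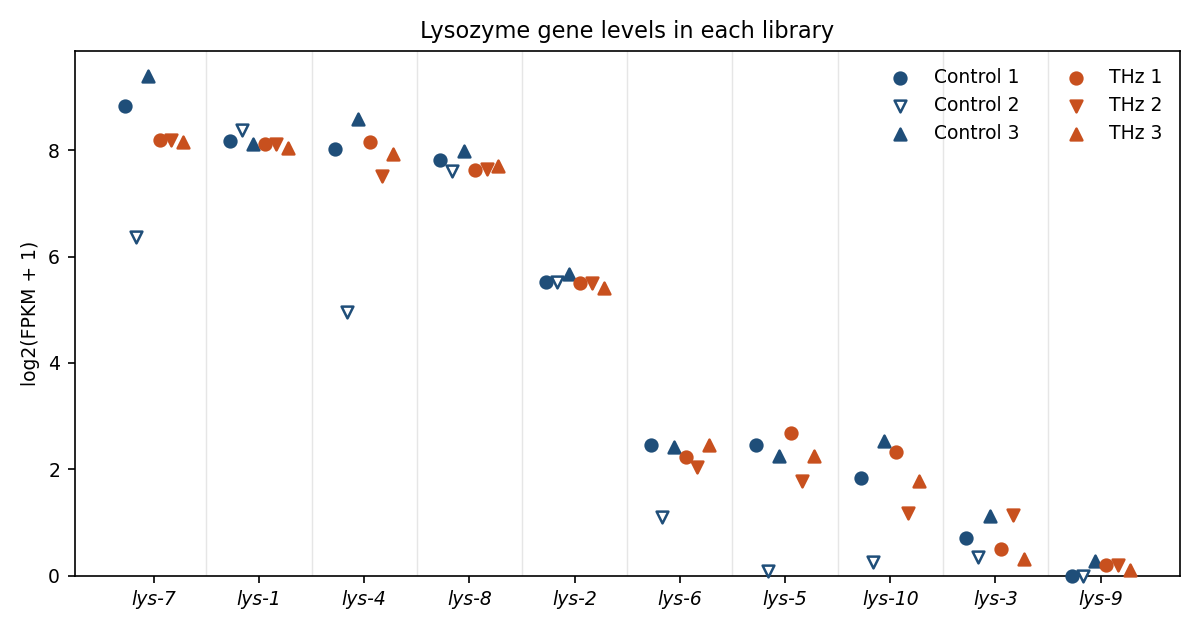
Levels of the 10 lys genes, ordered by mean level, as log2(FPKM + 1) on the y axis. Each point is 1 library, blue for Control and orange for THz, and the open triangle is Control 2. Control 2 lies far below the other 5 libraries for lys-7, lys-4, lys-6, lys-5 and lys-10, and close to them for lys-1, lys-8 and lys-2.

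The most abundant member, lys-7, is known as a target of DAF-16 and as a gene induced by several bacterial pathogens. It lies on the minus strand of chromosome V (3481421 to 3482600, WBcel235), with 3 exons. It measured 454 FPKM in Control 1, 81.8 FPKM in Control 2 and 674 FPKM in Control 3, against 292, 292 and 285 FPKM in THz 1, THz 2 and THz 3. The 3 THz values lay within the range of the controls, far above Control 2 and below Control 1 and Control 3, so the groups overlapped. The difference between Control 3 and Control 2 was 8.25-fold, with a counting interval of 7.83 to 8.69, whereas the counting intervals of the 3 THz libraries overlapped each other. On the log2(FPKM + 1) scale the SD was 1.61 over the controls and 0.02 over the THz libraries. The fitted log2 difference between THz and control was -0.02 ± 0.68 (SE; limma adjusted p = 0.995).

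The lys-4 gene had the same kind of spread. It measured 258 FPKM in Control 1, 30.2 FPKM in Control 2 and 382 FPKM in Control 3, against 285, 181 and 241 FPKM in THz 1, THz 2 and THz 3. Again Control 2 stood alone at the bottom and Control 3 at the top, with all 3 THz libraries between them. Control 3 was 12.7-fold above Control 2 (counting interval 11.6 to 13.9). The log2 difference between THz and control was 0.68 ± 0.83 (SE; limma adjusted p = 0.880).

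The scarce members lys-5, lys-6 and lys-10 were also lowest in Control 2. The lys-5 gene measured 4.52, 0.0681 and 3.79 FPKM in Control 1, Control 2 and Control 3, and 5.41, 2.44 and 3.73 FPKM in THz 1, THz 2 and THz 3. In Control 2 its value rested on 1 read, against 58 reads in Control 3, a ratio of 55.6 with a counting interval of 9.59 to 2232. Control 2 was thus near the limit of detection, and THz 2 lay below the other 4 libraries. The lys-6 gene measured 4.51, 1.14 and 4.36 FPKM in the controls and 3.70, 3.12 and 4.48 FPKM in the THz libraries, in the same order of replicates. The lys-10 gene measured 2.55, 0.194 and 4.77 FPKM in the controls and 3.999, 1.26 and 2.42 FPKM in the THz libraries. Control 2 held 17 reads of lys-6 and 3 reads of lys-10, and Control 3 was 3.83-fold (2.23 to 6.96) and 24.6-fold (8.11 to 122) higher. The log2 differences between THz and control were 0.63 ± 0.61 for lys-5, 0.25 ± 0.37 for lys-6 and 0.22 ± 0.57 for lys-10 (SE), with adjusted p of 0.849, 0.897 and 0.946. The locus of lys-10 shares 3 bases with the histone gene his-31 as listed in the table, and his-31 itself measured 1.02 to 2.86 FPKM.

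In contrast to these 5 genes, lys-1 and lys-2 held nearly constant levels. Both are adjacent on chromosome V, and lys-1 is known as an intestinal gene induced by Serratia marcescens. The lys-1 gene measured 287, 333 and 276 FPKM in Control 1, Control 2 and Control 3, and 275, 275 and 262 FPKM in THz 1, THz 2 and THz 3. Control 2 was the highest of the 6 libraries here, where it was the lowest for lys-7 and lys-4. All 3 THz values lay below the 3 control values, but THz 1 and Control 3 differed by less than counting error. The lys-2 gene measured 45.2, 45.0 and 49.96 FPKM in the controls and 44.2, 44.2 and 41.6 FPKM in the THz libraries, again without overlap. The counting intervals overlapped, except between Control 3 (46.9 to 53.1 FPKM) and THz 3 (38.8 to 44.6 FPKM). The log2 differences were -0.14 ± 0.09 for lys-1 and -0.10 ± 0.08 for lys-2 (SE; limma adjusted p = 0.828 for both). The groups of lys-1 overlapped after quantile normalization, and those of both genes overlapped when the libraries were scaled to the same median.

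The lys-8 gene, on the plus strand of chromosome II (5586165 to 5587651) and known to depend on DBL-1 signalling, was intermediate. It measured 224, 193 and 253 FPKM in Control 1, Control 2 and Control 3, and 197, 198 and 207 FPKM in THz 1, THz 2 and THz 3. Control 2 was the lowest and Control 3 the highest library, as for lys-7, but they differed only 1.31-fold (counting interval 1.26 to 1.37). The log2 difference between THz and control was -0.14 ± 0.11 (SE; limma adjusted p = 0.828), and the groups overlapped through Control 2. Its locus shares 38 bases with C17G10.13 on the opposite strand, which measured 20.7 to 29.5 FPKM, and without strand in the counting a read in the shared part could belong to either gene.

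The last pair, lys-3 and lys-9, was too scarce to be tested. The lys-3 gene measured 0.629, 0.280 and 1.16 FPKM in the controls and 0.412, 1.21 and 0.236 FPKM in the THz libraries, which corresponds to 5 to 26 reads. The groups overlapped, and Control 3 was 4.15-fold above Control 2 with a wide counting interval of 1.67 to 12.3. The lys-9 gene was listed at 0 in Control 1 and Control 2, with counting intervals that reach up to 0.270 and 0.261 FPKM. It had 3 reads in Control 3 and 1 or 2 reads in each THz library. A difference in lys-9 was not detectable at this depth.

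**Figure D2:**
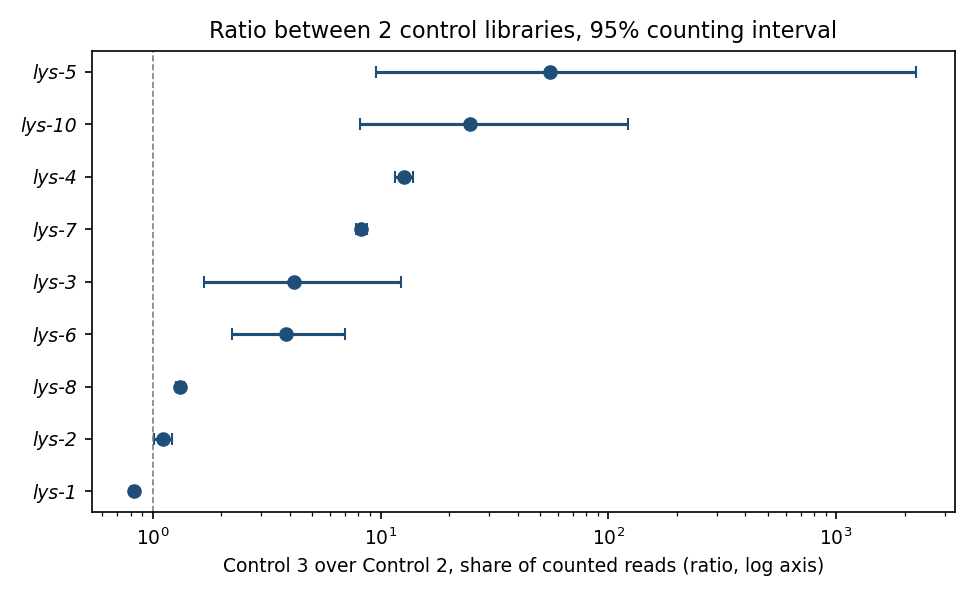
Ratio of Control 3 to Control 2 in the share of counted reads, on a log axis, for the 9 lys genes with reads in both libraries. Bars are exact 95% counting intervals and the dashed line marks equal levels. The ratio runs from 0.829 for lys-1 to 55.6 for lys-5.

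Over the family, 8 of the 10 lys genes reached at least 1 FPKM in at least 3 libraries and were tested. Of these 8, 5 were at least 2-fold higher in Control 3 than in Control 2, and 4 were at least 8-fold higher. Over the 12174 genes tested the shares were 12.1% and 1.69%. None of the 8 was at least 2-fold higher in Control 2, a share that was 6.45% over all genes. Control 2 was the lowest of the 6 libraries for 6 of the 8 (26.8% of all genes), Control 3 was the highest for 5 (30.4%), and 4 had both (15.1%). These are comparisons of single libraries with no replicate check, and the difference between the family and other genes was not tested.

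The spread within groups followed. The SD of log2(FPKM + 1) was larger over the controls than over the THz libraries for all 8 tested lys genes, as it was for 79.1% of all genes. The median SD of the lys genes was 0.97 over the controls and 0.13 over the THz libraries, where the medians over all genes were 0.21 and 0.11. For 5 of the 8 lys genes all 3 THz values lay within the range of the controls (41.7% of all genes). The summed level of the 10 genes was 1281, 685 and 1650 FPKM in Control 1, Control 2 and Control 3, and 1108, 999 and 1049 FPKM in THz 1, THz 2 and THz 3. Within that sum lys-1 took 48.6% in Control 2 and 16.7% in Control 3, while lys-7 took 11.9% and 40.9%. The make-up of the family thus differed between control libraries, with lys-1 leading in Control 2 and lys-7 leading in the other 5 libraries.

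Grouping the genes by this behaviour, after their values were seen, gives a sum for each kind, and the difference in spread between both sums follows from the grouping. The steady lys-1, lys-2 and lys-8 summed to 557, 571 and 579 FPKM in the controls and to 517, 518 and 511 FPKM in the THz libraries. The variable lys-4, lys-5, lys-6, lys-7 and lys-10 summed to 724, 113 and 1070 FPKM in the controls and to 591, 480 and 537 FPKM in the THz libraries.

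Whether immune genes such as these differ after exposure is the question the series title poses, and in limma none of the 8 tested lys genes passed. At an unadjusted p under 0.05 there were also none. Over all 12174 genes, limma called 0 (0%), with 714 at an unadjusted p under 0.05 (5.86%). Of the 8 lys genes, 4 were higher and 4 lower after THz (49.5% of all genes were lower), with a median log2 difference of 0.10, and the median over all genes was 0.00. All 3 THz libraries lay below all 3 controls for 2 lys genes, lys-1 and lys-2 (7.33% of all genes), and above them for none (6.44%).

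**Figure D3:**
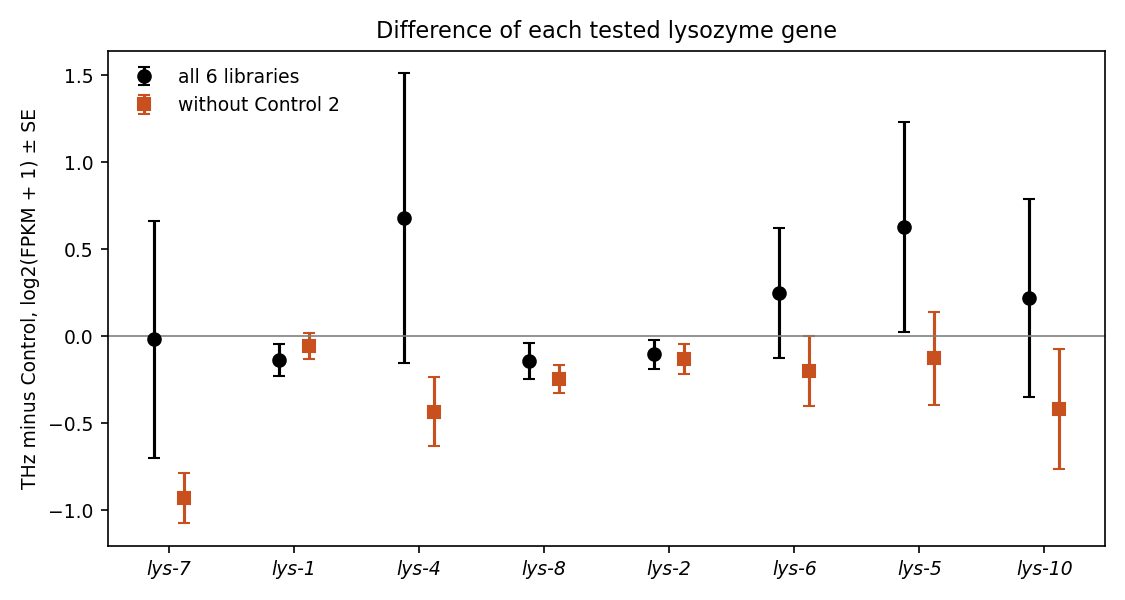
Difference between THz and Control on the log2(FPKM + 1) scale, with its SE, for the 8 tested lys genes. Black points use all 6 libraries and orange squares leave out Control 2. Without Control 2 all 8 differences are below 0, and that of lys-7 is -0.93.

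Because Control 2 stood apart, the comparison was repeated without it. Control 2 was singled out after its lys values were seen, and it was the lowest library for 6 of the 8. Leaving it out therefore raises their control means, so p-values of this fit describe the difference and do not test it. All 8 lys genes were then lower after THz, where 48.4% of all genes were, and their median log2 difference was -0.22 against 0.01 over all genes. Marker lists also shifted in value without Control 2, with 10 of 12 epidermis and moulting markers lower (3 called, median -0.72) and 0 of 9 sperm markers lower (0 called, median 0.44), and their part in the lys values was not tested. Only lys-7 passed in that fit, 1 of 8 where limma called 1.92% of all genes. Its log2 difference was -0.93 ± 0.14 (SE; limma adjusted p = 0.0178), with a mean of 564 FPKM in Control 1 and Control 3 and all 3 THz libraries below both. By unadjusted p it was number 78 of the 12174 genes, and 2 of the 8, lys-7 and lys-8, were under 0.05 unadjusted (17.6% of all genes). The THz libraries also lay below both controls for lys-1, lys-2 and lys-8, making 4 of 8 (19.1% of all genes), and above both for none (16.8%). The lys-8 gene differed by -0.24 ± 0.08 (SE; adjusted p = 0.170). Control 2 itself, at 81.8 FPKM of lys-7, lay below the THz libraries, so the direction of the lys-7 difference rests on which control library is compared.

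The sign of lys-4, lys-5, lys-6 and lys-10 also turned when Control 2 was left out. Their log2 differences were then -0.43, -0.13, -0.20 and -0.42, with adjusted p of 0.3002, 0.838, 0.635 and 0.560. With all 6 libraries each of these 4 differences had been above 0. Other libraries mattered too, since the difference of lys-7 was 0.58 without Control 3 and 0.30 without Control 1, and that of lys-10 was -0.06 without THz 1. By contrast, lys-1, lys-2 and lys-8 were lower after THz in all 17 alternatives to the processing and passed in none of them. Several of these, such as a change of the FPKM filter, cannot change the difference itself, and all reuse the same libraries. The shared sign is thus not independent support.

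By position, 6 of the 10 lys genes lie in 2 clusters. The chromosome IV cluster holds lys-4 (11621443 to 11623174), lys-5 (11624255 to 11625582) and lys-6 (11626910 to 11627947) within 6505 bases, each with 2 exons and all on the minus strand. All 3 were lowest in Control 2, by 12.7-fold, 55.6-fold and 3.83-fold against Control 3. Neighbouring genes had smaller ratios. The next tested gene to the right, F58B3.4, had a ratio of 0.763, and the methionyl-tRNA synthetase gene mars-1 had 0.896. To the left, the nearest tested row was the pseudogene WBGene00012499, at 29.4 FPKM in Control 2 and 55.5 FPKM in Control 3. Farther to the right, the transthyretin-related gene ttr-50 had a ratio of 2.78.

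The chromosome V cluster holds lys-1 (10277827 to 10279127), lys-2 (10280310 to 10281474) and lys-3 (10282204 to 10283544) within 5718 bases. The lys-1 gene is on the plus strand and the other two are on the minus strand. The ratio of Control 3 to Control 2 was 0.829 for lys-1 and 1.11 for lys-2, and it was 4.15 for lys-3 on few reads, above that of lys-6 in the other cluster. Tested neighbours to the right varied as well, with ratios of 0.357 for the collagen gene col-149, 0.251 for the collagen gene col-150 and 4.87 for B0024.4, while ric-4 to the left had 1.17. The abundant lys-7 lies elsewhere on chromosome V, and lys-10 lies on chromosome IV (8332826 to 8333559), so the variable members were not limited to 1 locus. Members side by side on the same strand could differ widely in level, as lys-4 at 230 FPKM and lys-5 at 3.33 FPKM did.

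**Figure D4:**
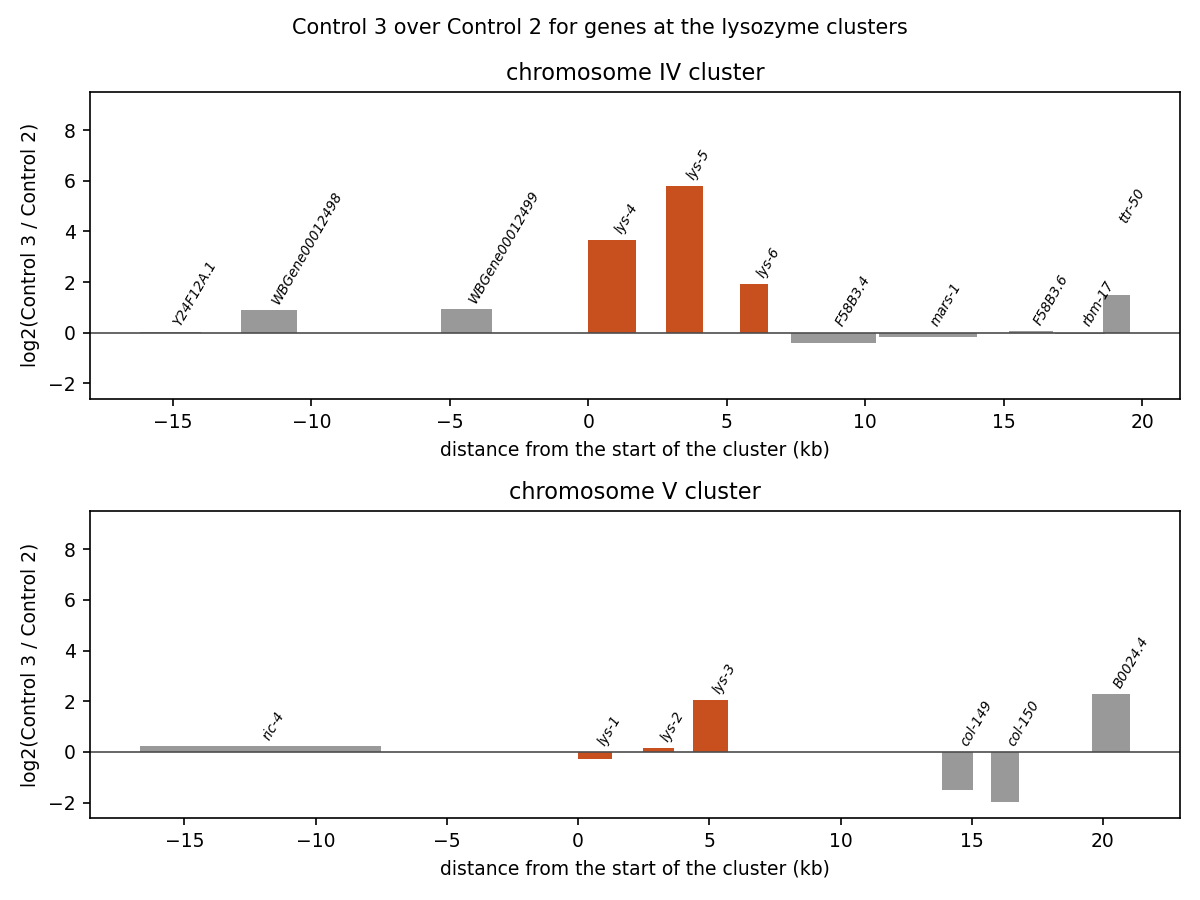
The ratio of Control 3 to Control 2, as log2 on the y axis, for lys genes (orange) and tested neighbours (grey) within 15 kb of both clusters. The x axis is distance in kb from the start of lys-4 (top) or lys-1 (bottom), and bar width is gene length. The bars of lys-4, lys-5 and lys-6 stand above those of their neighbours, while those of lys-1 and lys-2 are close to 0.

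Some of the invertebrate-type lysozymes, all 6 of which were in the table, varied among the controls as well. For ilys-4 the ratio of Control 3 to Control 2 was 1.05 (counting interval 0.733 to 1.51), and ilys-1 and ilys-6 were too scarce to be tested. The ilys-2 and ilys-3 genes, adjacent on chromosome IV, had 0 reads in Control 2 and 63 and 76 reads in Control 3. The counting interval of the ratio of Control 3 to Control 2 began at 15.9 for ilys-2 and at 19.3 for ilys-3. ilys-3, known as an intestinal and pharyngeal lysozyme, measured 5.88 FPKM in Control 1 and 7.65 FPKM in Control 3, against 1.16, 0.797 and 1.06 FPKM in THz 1, THz 2 and THz 3. The most abundant of all lysozyme genes, ilys-5 on chromosome X, measured 1155, 685 and 1048 FPKM in the controls and 1153, 905 and 1072 FPKM in the THz libraries. It was thus also lowest in Control 2, by 1.53-fold against Control 3. Of the 4 tested ilys genes 1 was higher and 3 lower after THz, 0 passed, and their median log2 difference was -0.31. Without Control 2, again left out after values were seen, all 4 were lower (48.4% of all genes), with a median of -0.80. ilys-3 was called there, 1 of 4 where limma called 1.92% of all genes. Its log2 difference was -1.95 ± 0.21 (SE, limma adjusted p = 0.00596), as number 15 by unadjusted p. Control 2, at 0 for ilys-3, lay below the THz libraries. The groups did not overlap for 1 of the 4, ilys-4, with THz lower (7.33% of all genes). It measured 5.67, 3.67 and 3.86 FPKM in the controls and 3.65, 2.54 and 2.31 FPKM in the THz libraries. Its log2 difference was -0.49 ± 0.23 (SE, limma adjusted p = 0.827). Its locus overlaps atic-1 on the opposite strand.

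Genes of the pathways known to control lysozyme expression were read in the same fit. Of 9 tested genes of the p38 pathway 3 were higher and 6 lower after THz, of 10 in the DBL-1 pathway 2 were higher and 8 lower, and of 8 between the insulin receptor and DAF-16 5 were higher and 3 lower. None passed, and the median log2 differences were -0.03, -0.05 and 0.02. The kinase gene pmk-1 measured 6.91, 7.73 and 10.5 FPKM in the controls and 8.90, 10.3 and 7.09 FPKM in the THz libraries. The ligand gene dbl-1 measured 4.87 to 5.15 FPKM in the controls and 4.17 to 5.75 FPKM in the THz libraries, and daf-16 measured 62.9 to 74.7 FPKM and 64.4 to 68.0 FPKM. For these 3 regulators Control 2 was not the lowest library, and the groups overlapped. Of the 8 insulin pathway genes, THz lay below all controls for 1, akt-2 (7.33% of all genes), and above them for 1, daf-18 (6.44%). Over the 3 pathways, Control 2 was the lowest of the 6 libraries for 10 of the 27 tested genes, nsy-1, skn-1 and daf-2 among them (26.8% of all genes).

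Some intestinal regulators did vary among the controls. Of the 9 tested, 2 were at least 2-fold higher in Control 3 than in Control 2 (12.1% of all genes). Control 2 was the lowest of the 6 libraries for 6 of the 9 (26.8% of all genes). Of 9 tested, 2 were higher and 7 lower after THz, with 0 passing and a median log2 difference of -0.09. The gene for PQM-1, a zinc finger transcription factor that acts in opposition to DAF-16, measured 29.0, 11.9 and 43.7 FPKM in Control 1, Control 2 and Control 3, and 28.9, 20.4 and 25.6 FPKM in the THz libraries. Control 2 was lowest and Control 3 highest, as for lys-4. The gene for the intestinal GATA factor ELT-2 measured 7.28, 5.44 and 10.6 FPKM in the controls and 6.84 to 7.17 FPKM in the THz libraries. Again Control 2 was lowest and Control 3 highest, while the order among the THz libraries differed from that of pqm-1. In the p38 list, the adaptor gene tir-1 measured 10.8, 5.76 and 17.98 FPKM in the controls and 7.58 to 10.7 FPKM in the THz libraries. The mxl-3 gene, which encodes a repressor of lysosomal lipase genes, ran the other way at 43.1, 56.9 and 33.3 FPKM in the controls. Its 3 THz values of 30.7, 21.6 and 23.1 FPKM lay below all controls (log2 difference -0.78 ± 0.21, SE; limma adjusted p = 0.757). That was so for 1 of the 9 intestinal regulators, where the share over all genes was 7.33%.

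Markers of tissues give the setting in which the lys genes varied. The 15 intestine markers found were all tested, and most of them were steady between control libraries. Their median ratio of Control 3 to Control 2 was 1.05. At least 2-fold higher were 1 in Control 3 (12.1% of all genes) and 1 in Control 2 (6.45%). Their summed level was 13972 FPKM in Control 2 and 14950 to 17509 FPKM in the other 5 libraries. The most abundant of them, the yolk protein gene vit-6, measured 7802, 6667 and 8135 FPKM in the controls and 7126 to 7532 FPKM in the THz libraries. The aspartyl protease gene asp-1 measured 1996, 1231 and 1946 FPKM in the controls and 1266 to 1843 FPKM in the THz libraries. The epidermis and moulting markers varied in the direction of the lys genes. Of 12 tested, 10 were at least 2-fold higher in Control 3 than in Control 2 (12.1% of all genes), with a median ratio of 5.17. Against -1.07 and 0.52 for lys genes, the mean centred log2 value of these markers was -0.88 in Control 2 and 0.76 in Control 3. Their summed level, led by the adult cuticle collagen gene col-19, ran instead from 1072 FPKM in Control 3 to 1412 FPKM in Control 1 among the controls and from 842 to 970 FPKM among the THz libraries. The cuticle collagen gene sqt-3 measured 319, 44.4 and 446 FPKM in the controls and 106 to 151 FPKM in the THz libraries, while col-19 measured 951, 1191 and 416 FPKM and 576 to 783 FPKM. The sperm markers went the opposite way, with all 9 tested at least 2-fold higher in Control 2 than in Control 3 (6.45% of all genes). Their summed level was 93.2 FPKM against 28.6 FPKM, and ssp-9 was at 0 in all 6 libraries. Median ratios of Control 3 to Control 2 were 0.635 for body wall muscle, 0.888 for pharynx, 1.07 for neuron and 1.0998 for oocyte and germline markers. Between THz and control, all 9 body wall muscle markers were lower in value (median log2 difference -0.39), 4 of them without overlap. Of the 8 neuron markers 7 were lower (median -0.31), 5 of them without overlap. Over all genes, 7.33% were lower without overlap. All 9 oocyte and germline markers were higher in value (median 0.15), 5 of them without overlap (6.44% of all genes), and no marker of these 3 lists passed. Whether these differences have a part in the lys values, those of lys-1 and lys-2 included, was not tested.

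**Figure D5:**
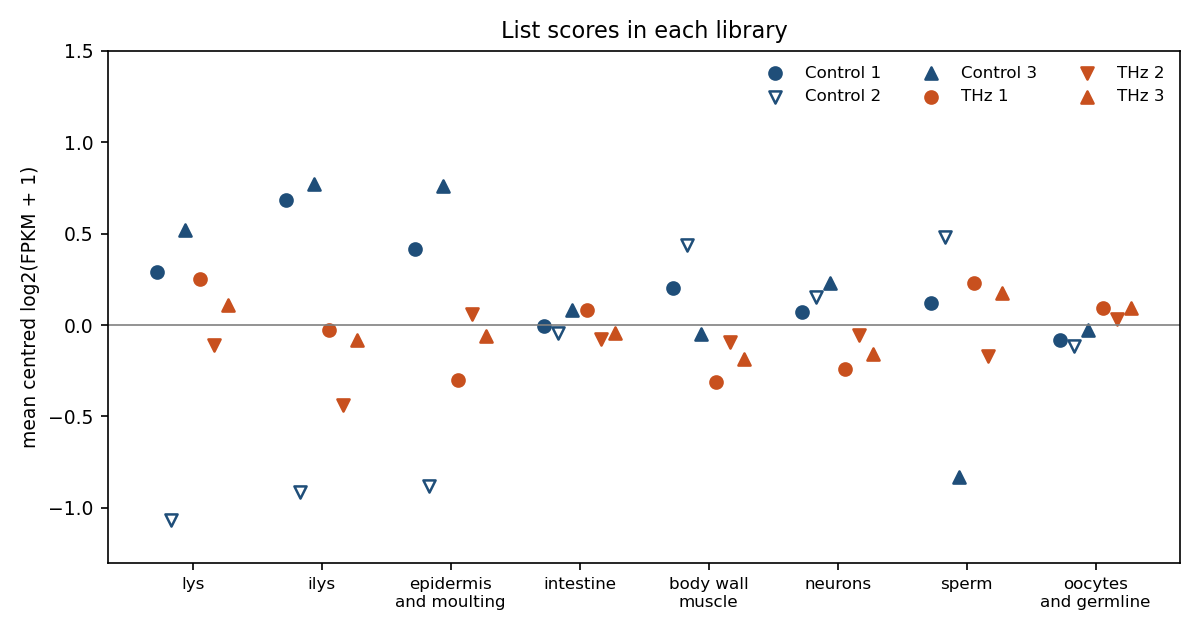
Mean over the tested genes of a list of log2(FPKM + 1) after subtracting each gene's mean over the 6 libraries, by list and library. Blue points are Control, orange points are THz, and the open triangle is Control 2. Of the lists shown, Control 2 is lowest for the lys, ilys and epidermis and moulting lists (-1.07, -0.92 and -0.88), is also lowest, by less, for the oocyte and germline list (-0.11), and lies within the range of the others for the intestine list (-0.04).

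The genes most like the lys genes were sought among 8413 genes of at least 5 FPKM, by the root mean square distance between centred log2(FPKM + 1) profiles over the 6 libraries. Nearest to the mean lys profile were ZK673.1 (distance 0.07), elc-1 (0.12), C14C6.2 (0.12), clec-266 (0.12) and F09C8.1 (0.12). Nearest to lys-7 were sodh-1 (0.12), which encodes an alcohol dehydrogenase, the C-type lectin gene clec-7 (0.14), dao-2 (0.19), R03H10.2 (0.20) and mlt-8 (0.22). The sodh-1 gene measured 261, 45.2 and 405 FPKM in the controls and 176, 139 and 153 FPKM in the THz libraries, with Control 2 lowest, Control 3 highest and the THz libraries between, as for lys-7. Nearest to lys-1 were the mitochondrial ribosomal protein gene mrpl-30 (0.02), aqp-10, set-31, idhb-1 and lonp-2 (0.03 each). All of these had their highest value in Control 2, as lys-1 did. The distances describe these 6 libraries alone.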

How the data were processed

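Per the labels' protocols, polyadenylated RNA of whole worms came from a TRIzol extraction and went through a TruSeq v2 library kit. Tools named without a role in the submitters' processing notes are STAR, HTSeq (0.5.4) and DESeq (1.10.1), with build WBcel235. The authors deposited FPKM values per gene and library, with gene position and length, per the file headers. Reads were recovered as FPKM times length over the step of each library, and 88.7% of values above 0 came out whole within 0.05 reads. A gene was tested if 3 or more of the 6 libraries reached 1 FPKM, with limma 3.58.1 in R 4.3.3 on log2(FPKM + 1), with a mean-variance trend and treatment as the only term, two-sided, with Benjamini-Hochberg adjustment over 12174 genes and a threshold of 0.05. Differences on this scale understate those of low genes. An exact permutation test of 3 against 3 libraries cannot pass 0.05, so none is given. The fit was first tested on simulated data, in which the libraries of a group shared the same mean level for each gene. No simulated control library stood apart, so that run gives no power or error rate for these libraries. Positions are those of the deposited table, and strand, exons and overlaps come from Ensembl release 115. The table holds FPKM and no counts, so recovered reads were tested only as an alternative, with voom (limma). The members, lists, tests and alternatives were chosen with earlier results of these data known. Named genes were all lys genes, members of the ilys and regulator lists, a few markers of high level, and the 5 nearest profiles. The cluster neighbours were named after their values were seen. No 2 libraries of a group agreed within sampling noise (chi-square per degree of freedom at least 4.35).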

Additional observations from a re-analysis of the deposited data

How the results depend on the processing

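The alternatives were a pseudocount of 0.1 or 5 FPKM, a filter of 5 FPKM or none, quantile or median scaling, robust moderation, library weights, the replicate block, voom on recovered reads, leaving out each library in turn and, added after seeing the data, leaving out both Control 2 and Control 3. No gene was called under most of them, but library weights called 3092 of the 12174 genes and 0 of the 8 lys genes. At an unadjusted p under 0.05 in that limma fit were 5101 genes and 2 lys genes, lys-7 and lys-8 (adjusted p = 0.072 and 0.065). Leaving out each library in turn called from 0 to 234 genes and from 0 to 1 lys genes. The 234 genes (1.92%) and 1 of 8 lys genes were reached without Control 2. Control 1 alone against THz called 50 of the 12174 genes and 1 of the 8 lys genes, lys-7 (log2 difference -0.65). There the lone control is assumed to vary like the THz libraries, and the lowest and highest libraries of lys-7 are left out. The calls of that fit therefore describe the difference and do not test it. The sign of lys-7 turned with libraries scaled to the same median (0.064) and ran from -0.93 to 0.58 over the left-out libraries. With library weights the sign turned for lys-4 (-0.024), lys-5 (-0.10), lys-6 (-0.071) and lys-10 (-0.0083), and against Control 1 alone for the same genes (-0.15, -0.23, -0.22 and -0.069). Over the left-out libraries these ran from -0.43 to 1.38, -0.13 to 1.06, -0.20 to 0.48 and -0.42 to 0.72. The cause was not tested. The median lys difference ran from -0.22 to 0.52 over the left-out libraries. The replicate numbers did not pair the libraries (correlation of deviations -0.01, -0.14 and 0.03), and with the replicate block 0 genes were called, 0 of them lys, with a median lys difference of 0.10. Depth limits lys-3, lys-9 and the Control 2 values of lys-5 and lys-10, which rest on 0 to 6 reads there.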
